A study of Rattus norvegicus with 8 samples.

Results

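The genes described are 10 members of the fibroblast growth factor (FGF) system, the ligands Fgf1, Fgf2, Fgf7, Fgf10 and Fgf18, the kinase receptors Fgfr1, Fgfr2, Fgfr3 and Fgfr4, and the receptor-like gene Fgfrl1. They were taken by gene symbol from a table of 31699 rows, and each of the 10 has 1 row. RNA-seq was measured in annulus fibrosus cells (AFCs) of Sprague Dawley rats, in 4 samples labelled Lv-Ctrl (genotype Ctrl, infected with the control vector pLVX-shRNA-Puro) and 4 labelled Lv-Piezo1 (genotype Piezo1 knock down, infected with pLVX-shRNA-Puro-Piezo1, which carries a short hairpin RNA against the mechanosensitive channel Piezo1). The AFCs, cells of the outer fibrous ring of the intervertebral disc, were exposed to lentivirus for 24 h (multiplicity of infection 20), and all samples were then put under cyclic mechanical stretch (CMS) at 20% elongation and 0.5 Hz for 36 h, so that no unstretched or uninfected sample is part of the comparison. Each isolation pooled the tissue of 8 rats, the age of the rats used for the cells is not given separately (the operated rats of the study were 3 months old), and the study describes the samples as 4 biological repeats with cells of the third generation. Its methods count the treatments of cells from the same isolation as a single repeat, so the groups may share isolations. The comparison asks how the transcripts of the stretched cells differ once Piezo1 is targeted.

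FGF ligands are secreted proteins that bind receptor tyrosine kinases together with heparan sulfate, and the activated receptors signal through the adaptor Frs2 to the RAS and ERK kinases, to PI3-kinase and to phospholipase C gamma. Fgf1 and Fgf2 are leaderless ligands that act broadly, Fgf7 and Fgf10 are made by mesenchymal cells and act mainly on the epithelial splice form of Fgfr2, and Fgf18 acts on skeletal tissues through Fgfr3. Fgfrl1 binds FGF ligands but lacks the kinase domain. In cartilage and fibrous connective tissue, Fgfr1 and Fgfr3 are known for different parts in proliferation and matrix production. The table gives 1 value per gene, so the splice forms of the receptors are not separated.

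The values are TPM, levels per transcript length scaled to a common total in each sample. TPM keeps no sequencing depth, so the depth is unknown, and the SDs given are the spread of the 4 samples in a group. The groups were compared with limma on log2(TPM + 1) over the 13103 genes with a mean of at least 1 TPM. The standard errors of the log2 fold changes come from this fit, which takes both groups and moderates the spread of each gene over all genes. Changes of low genes come out too small on this scale. Called genes are those that changed by 1 or more on that scale with an adjusted p (Benjamini-Hochberg) under 0.05. Over all tested genes the median log2 fold change was 0.14, towards higher values in the samples labelled Lv-Piezo1, and median-ratio scaling of the samples brought this to -0.0046. Piezo1 itself measured 26.7 to 33.0 TPM under the label Lv-Ctrl and 37.7 to 41.4 TPM under the label Lv-Piezo1. The targeted transcript was thus higher where the label says knockdown, and every direction below is that of the samples as labelled. An exchange of the labels would turn every direction and was not tested. Defining genes of the annulus were present, with Col1a1 at 3103 TPM or more and Scx, a tendon and annulus transcription factor, at 23.1 TPM or more in every sample, while Tnmd reached at most 0.08 TPM. All 7 tested genes of that list of 8 passed at an adjusted p below 0.05, 5 higher and 2 lower, where 58.2% of all tested genes passed (41.9% higher and 16.3% lower). Thbs4 was called higher (log2 fold change 3.21), and Mkx (-0.76) and Fmod (-0.99) were lower. The summed TPM of the list was 5503 to 6215 in the controls and 10150 to 10830 in the samples labelled Lv-Piezo1. The 6 chondrocyte-like markers summed to 33.1 to 39.8 against 53.0 to 56.6 TPM. Most of this sum was Acan, with 27.3 to 33.8 against 45.5 to 48.85 TPM (log2 fold change 0.57). Comp was called higher (0.55 to 1.04 against 2.56 to 3.07 TPM, 1.16). It reached a mean of 1 TPM only through the samples labelled Lv-Piezo1, so its call is a description. Sox9 did not pass (-0.0083, limma adjusted p = 0.94), and Col2a1, Matn3 and Chad stayed below 1 TPM in every sample. Of the markers of other cells, the notochord genes Tbxt and Noto, the macrophage gene Adgre1 and the epithelial genes Cdh1 and Krt5 were listed at 0 in every sample, and the endothelial gene Cdh5 reached at most 0.06 TPM. Other genes of these lists were present or moved. The macrophage-associated Cd68 (0.20 to 2.08 against 11.4 to 13.4 TPM, log2 fold change 2.88) and the nucleus pulposus marker Cd24 (3.54 to 4.03 against 19.1 to 23.4 TPM, 2.25) were called higher. Cd68 too had a mean below 1 TPM under the label Lv-Ctrl and was tested only through the other group, so its call is a description. Cd14 had 20.6 to 27.9 TPM and the endothelial Egfl7 24.7 to 33.7 TPM over all samples. In Lv-Ctrl replicate 2 the skeletal muscle genes Ckm and Acta1 stood at 14.0 and 22.1 TPM, the highest of all samples, and without that sample 1 member was called and 8 had an adjusted p below 0.05, as with it. The 7 smooth muscle and pericyte markers summed to 213 to 223 TPM in the samples labelled Lv-Ctrl against 1805 to 1897 TPM in those labelled Lv-Piezo1. Acta2 alone went from a mean of 51.2 to 1344 TPM. Of the 6 tested markers, 4 were called higher (Acta2, Myh11, Cnn1 and Des), where 4.91% of all tested genes were called higher. Cspg4 (log2 fold change 0.78) and Pdgfrb (0.15) were higher without a call, and Rgs5 reached at most 0.35 TPM. In bulk RNA, a different share of such cells and a different amount of RNA per cell cannot be told apart, and the part of these marker shifts in the values below was not tested.

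The promoters of 9 of the 10 members are in the RefSeq table of assembly GRCr8, and that of Fgfr1 is missing there. The sequences of 3 of them are shown, each as the 250 bases before the gene's start, read 5′ to 3′ on the strand of the gene. Fgf7 and Fgf10 are shown because they belong to one ligand subfamily, of which Fgf10 rose and Fgf7 did not pass the test, and Fgfr3 because it was the member that passed the threshold for a call. Capitals mark matches to GGAATG (the motif of TEAD factors), TATAAA or GGGCGG (the motif of SP1) on either strand. None of these matches overlaps another, and TGANTCA (the motif of AP-1) was searched as well and matched in none of the 9 promoters.
Fgf7 (GRCr8, chr3:133735377-133735626, plus strand): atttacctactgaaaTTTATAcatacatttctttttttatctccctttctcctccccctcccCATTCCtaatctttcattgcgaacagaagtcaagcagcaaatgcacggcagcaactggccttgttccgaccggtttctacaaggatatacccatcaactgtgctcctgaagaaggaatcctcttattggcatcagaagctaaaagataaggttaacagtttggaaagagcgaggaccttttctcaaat
Fgf10 (GRCr8, chr2:52533689-52533938, plus strand): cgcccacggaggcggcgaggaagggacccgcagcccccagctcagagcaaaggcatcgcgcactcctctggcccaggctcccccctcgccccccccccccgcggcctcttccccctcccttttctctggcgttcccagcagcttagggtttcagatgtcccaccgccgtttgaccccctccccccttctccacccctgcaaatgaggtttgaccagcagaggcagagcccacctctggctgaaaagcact
Fgfr3 (GRCr8, chr14:81227210-81227459, minus strand): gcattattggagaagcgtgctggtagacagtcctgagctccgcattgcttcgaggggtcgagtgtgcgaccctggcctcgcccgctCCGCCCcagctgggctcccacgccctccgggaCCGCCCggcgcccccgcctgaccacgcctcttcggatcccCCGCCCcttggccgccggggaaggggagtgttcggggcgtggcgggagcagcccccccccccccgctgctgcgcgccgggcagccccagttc
The Fgf7 window had a GC content of 41.6%, with 1 match to GGAATG and 1 to TATAAA. The Fgf10 window had 67.2% GC and no match, and the Fgfr3 window had 74.4% GC and 3 matches to GGGCGG. The median over 33469 RefSeq promoters was 51.2% GC. GGGCGG was found in 30.5% of these promoters, GGAATG in 12.1%, TATAAA in 12.9% and TGANTCA in 6.34%. Each of the receptor promoters in the table held GGGCGG, with 2 matches in Fgfr2 and Fgfr4 and 3 in Fgfr3 and Fgfrl1, while among the ligands it was found once, in Fgf18. These matches describe the letters of the windows only.

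Of the 10 members, 9 had a mean of at least 1 TPM and were tested, and Fgfr4 was not. Fgfr3 alone was called, with higher values in the samples labelled Lv-Piezo1, where 7.67% of all tested genes were called in either direction 4.91% being higher and 2.76% lower. At an adjusted p below 0.05 without the fold threshold, 8 of the 9 tested members differed, 5 higher and 3 lower, against 58.2% of all tested genes, of which 41.9% were higher and 16.3% lower. The groups did not overlap in the same number of members, 8 of 9, against 54.2% of all tested genes. The higher members were Fgf10, Fgf18, Fgfr1, Fgfr3 and Fgfrl1, the lower ones were Fgf1, Fgf2 and Fgfr2, and Fgf7 did not pass. Fgf18 reached a mean of 1 TPM only through the samples labelled Lv-Piezo1, where it was high, so it had to differ once it was tested, and its place in these counts carries no weight. The median log2 fold change of the 9 members was 0.37, with Fgf18 counted, against 0.14 over all tested genes. Without Fgf18 the median lies midway between the values of Fgf7 (-0.06) and Fgfrl1 (0.37), so the 0.37 carries no weight either. The direction of each of the 9 was the same under each scaling tried (TPM as deposited, median-ratio scaling, quantile normalization).

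**Figure D1:**
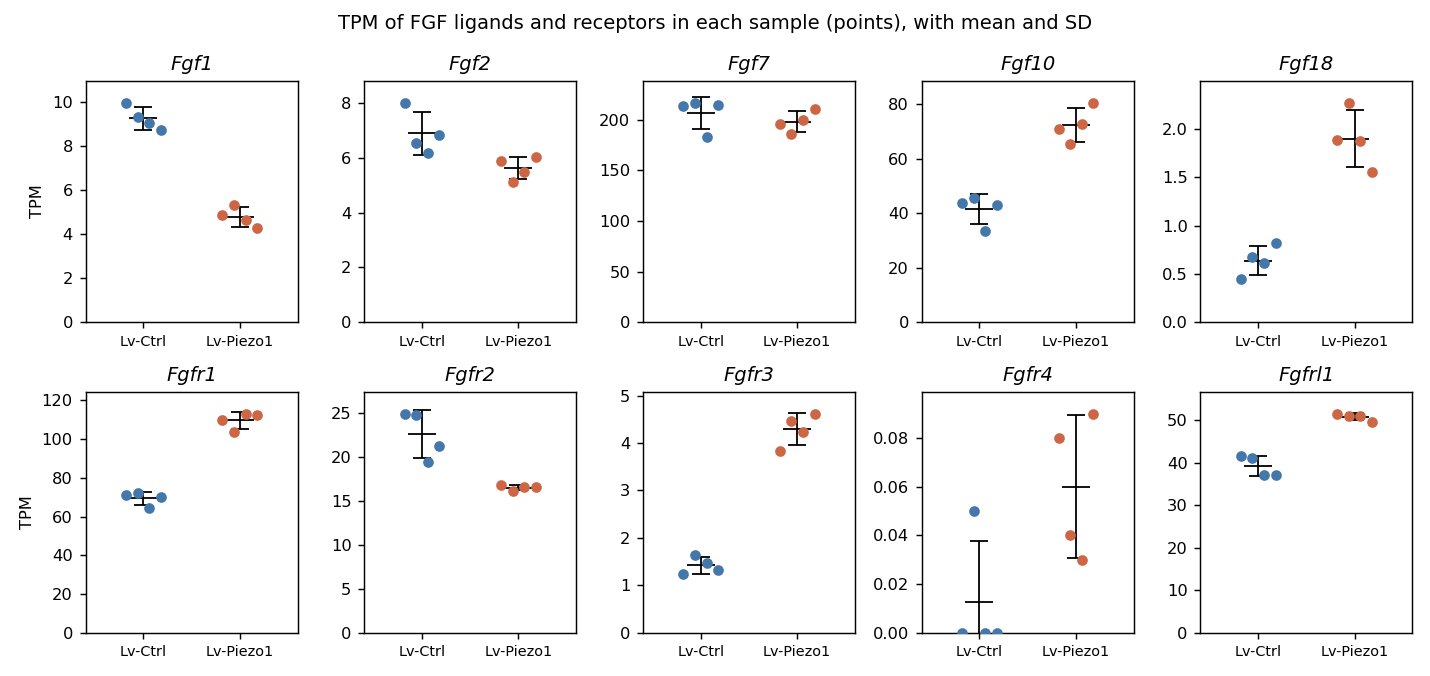
TPM (vertical axes, each from 0) of the 10 FGF members in the 4 samples labelled Lv-Ctrl (blue) and the 4 labelled Lv-Piezo1 (orange), with the mean and SD in black. The points of the groups are apart in 8 members and mixed in Fgf7 and Fgfr4, and the Fgfr4 values stay below 0.1 TPM.

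Among the receptors, Fgfr1 was the most abundant and rose. In the order of the replicate numbers, its TPM were 71.1, 72.0, 64.6 and 70.1 under the label Lv-Ctrl and 109.8, 103.4, 113.1 and 112.2 under the label Lv-Piezo1. The groups did not overlap, and the mean went from 69.4 ± 3.31 to 109.6 ± 4.37 TPM (SD, n = 4 each), 1.58 times as high. The log2 fold change was 0.65 (standard error 0.04, limma adjusted p = 2.8e-06).

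Fgfr2, the receptor whose epithelial splice form binds Fgf7 and Fgf10, went the other way. It measured 24.9, 24.8, 19.4 and 21.3 TPM under the label Lv-Ctrl and 16.8, 16.1, 16.6 and 16.6 TPM in those labelled Lv-Piezo1. The lowest control value lay above the highest value of the other group, and the samples labelled Lv-Ctrl were spread more widely (SD 2.72 against 0.291 TPM, n = 4 each). The mean was 27.0% lower, with a log2 fold change of -0.42 (standard error 0.08, limma adjusted p = 0.0013).
Esrp1, a splicing factor that directs the epithelial splice forms of FGF receptors, was listed at 0 in all samples. Its relative Esrp2, like Esrp1 a gene of the epithelial marker list, had 0.80 to 1.30 TPM in the controls (labelled Lv-Ctrl) and 1.66 to 2.47 TPM in those labelled Lv-Piezo1.

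Fgfr3, a receptor known for restraining cartilage growth, was low in all samples and changed most among the tested members on the deposited TPM, whereas with quantile normalization Fgf1 changed more (-1.03 against 0.91). It measured 1.24, 1.63, 1.48 and 1.33 TPM in the samples labelled Lv-Ctrl against 3.84, 4.47, 4.23 and 4.62 TPM in those labelled Lv-Piezo1. The groups were well apart, with means of 1.42 ± 0.171 and 4.29 ± 0.34 TPM (SD, n = 4 each), 3.02 times as high. The log2 fold change was 1.13 (standard error 0.09, limma adjusted p = 7.8e-06), and it was 0.91 after quantile normalization, below the fold threshold. Among 9061 genes with a symbol and a mean of at least 5 TPM, those whose values over the 8 samples were most like Fgfr3 were Fam174b (Pearson r = 0.998), Matn4, a matrilin of the extracellular matrix (0.998), and Ggt7 (0.996). An r above 0.95 was found for 1439 genes. The 8 samples fall into the 2 labelled groups, so these correlations are a description only.

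Fgfr4 was at or near 0, at 0, 0.05, 0 and 0 TPM under the label Lv-Ctrl and 0.08, 0.04, 0.03 and 0.09 TPM in those labelled Lv-Piezo1. The groups overlapped and no fold is given (p = 0.086 in an exact permutation test, two-sided, with 70 relabelings).
Fgfrl1, the receptor without a kinase domain, measured 41.5, 41.2, 37.2 and 37.0 TPM in the controls (labelled Lv-Ctrl) and 51.5, 50.9, 51.0 and 49.7 TPM in those labelled Lv-Piezo1. All samples labelled Lv-Piezo1 were higher, 1.29 times on average, with a log2 fold change of 0.37 (standard error 0.05, limma adjusted p = 1.5e-04).

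Within a sample, the receptors can be compared with each other in a way that a constant factor per sample does not change. Fgfr1 made up 73.1%, 73.1%, 75.5% and 75.6% of the summed TPM of Fgfr1 to Fgfr4 in replicates 1 to 4 labelled Lv-Ctrl, and 84.1%, 83.4%, 84.4% and 84.0% in those labelled Lv-Piezo1. The share was 9.67 percentage points higher in the latter, with no overlap (74.3 ± 1.44% against 84.0 ± 0.447%, SD, n = 4 each, p = 0.029 in an exact permutation test, two-sided, which is the least that 4 against 4 can give, adjusted p = 0.043 over 3 such measures). The Fgfr2 share was 22.7% to 25.7% against 12.4% to 13.0%, and the Fgfr3 share was 1.28% to 1.73% against 2.94% to 3.61%, both given as a description, since they were added after the values had been seen. The summed TPM of the kinase receptors was 85.5 to 98.5 in the samples labelled Lv-Ctrl and 124 to 133.9 in those labelled Lv-Piezo1. Fgfrl1 stood at 42.0 ± 1.54% of that sum in the former and at 39.0 ± 1.69% in the latter (SD, n = 4 each). This difference of -3.03 percentage points did not pass (exact two-sided permutation test, p = 0.057, adjusted p = 0.057 over the 3 measures), and the groups overlapped. Fgfrl1 was therefore higher in level, while its level per kinase receptor was not shown to differ.

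Among the ligands, Fgf7, a mesenchymal factor that acts on epithelia, was the most abundant of all members and, on the deposited TPM, the tested member with the smallest change. It measured 213.8, 216.8, 183.2 and 214.4 TPM in the samples labelled Lv-Ctrl against 196.1, 185.6, 199.8 and 210.9 TPM in those labelled Lv-Piezo1. The groups overlapped, with means of 207.1 ± 15.9 and 198.1 ± 10.4 TPM (SD, n = 4 each) and a log2 fold change of -0.06 (standard error 0.06, limma adjusted p = 0.42). The third sample labelled Lv-Ctrl lay below the other samples of its group. Without it the log2 fold change was -0.12 (limma adjusted p = 0.040), and with median-ratio scaling of all samples it was -0.22 (limma adjusted p = 0.0019), so whether Fgf7 fell depended on these choices.

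Fgf10, its close relative and a factor of limb and lung budding, rose. It measured 43.9, 45.4, 33.3 and 43.1 TPM under the label Lv-Ctrl and 70.8, 65.6, 72.7 and 80.5 TPM in those labelled Lv-Piezo1. All samples labelled Lv-Piezo1 were higher, 1.75 times on average, with a log2 fold change of 0.80 (standard error 0.10, limma adjusted p = 1.3e-04). Set against Fgf7 in the same sample, Fgf10 stood at 18.2% to 21.0% of the Fgf7 level in the samples labelled Lv-Ctrl and at 35.3% to 38.2% in those labelled Lv-Piezo1, a ratio chosen after the values had been seen.

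Fgf18, a ligand of cartilage and bone, was below 1 TPM in every sample labelled Lv-Ctrl and entered the test through the other group alone, so its test is a description. It measured 0.45, 0.67, 0.61 and 0.82 TPM in the controls (labelled Lv-Ctrl) and 1.89, 2.27, 1.88 and 1.55 TPM in those labelled Lv-Piezo1. The groups did not overlap and the mean TPM was 2.98 times as high, a fold near that of Fgfr3, but on the log2(TPM + 1) scale the change was 0.82 (standard error 0.13, limma adjusted p = 4.8e-04). With a pseudocount of 0.1 it was 1.45, past the fold threshold.

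The ligands Fgf1 and Fgf2, which bind several of the receptors, were both lower. Fgf1 measured 9.96, 9.34, 9.03 and 8.72 TPM in the samples labelled Lv-Ctrl against 4.85, 5.34, 4.62 and 4.28 TPM in those labelled Lv-Piezo1. Its groups were far apart and its mean was 48.5% lower, with a log2 fold change of -0.83 (standard error 0.07, limma adjusted p = 1.3e-05), which reached -1.03 after quantile normalization.
Fgf2 measured 8.02, 6.55, 6.19 and 6.85 TPM under the label Lv-Ctrl and 5.89, 5.14, 5.51 and 6.05 TPM in those labelled Lv-Piezo1. The gap between the groups was narrow, from 6.05 to 6.19 TPM, and the log2 fold change was -0.25 (standard error 0.08, limma adjusted p = 0.032). The adjusted p rose above 0.05 when any of 4 samples was left out, to 0.072 without Lv-Ctrl replicate 1, 0.065 without Lv-Ctrl replicate 4, 0.085 without Lv-Piezo1 replicate 2 and 0.075 without Lv-Piezo1 replicate 3. With no filter on low TPM it was 0.054.

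**Figure D2:**
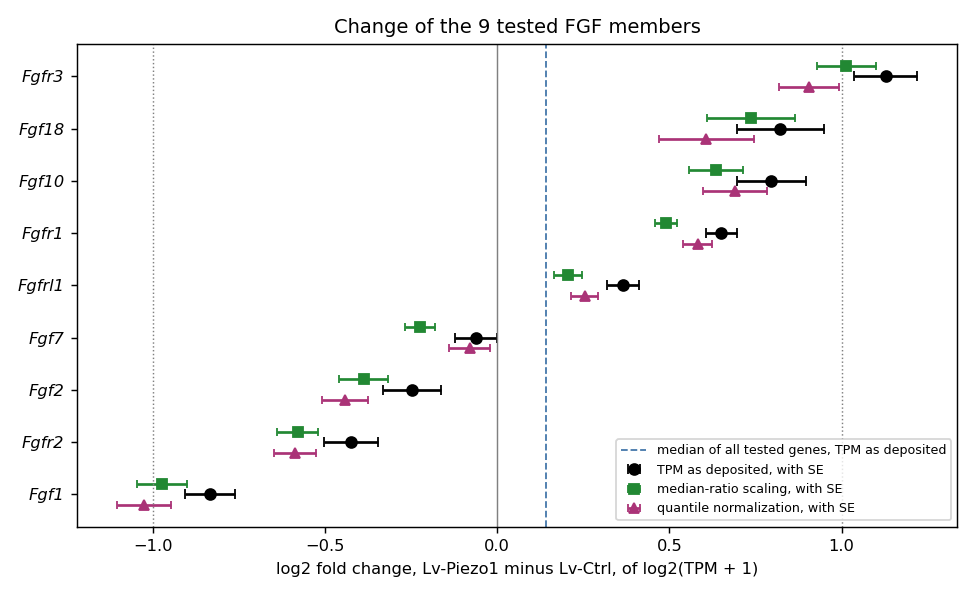
Log2 fold change (horizontal axis, samples labelled Lv-Piezo1 minus Lv-Ctrl, of log2(TPM + 1)) of the 9 tested members with its standard error, on the deposited TPM (black), with median-ratio scaling (green squares) and with quantile normalization (purple triangles). Dotted lines mark the fold threshold of 1 in each direction, the dashed line marks the median of all tested genes at 0.14, and 5 members lie right and 4 left of 0 under all 3 scalings.

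Fgf7 and Fgf10 together made up 93.7 ± 0.455% of the summed TPM of the 5 ligands in the samples labelled Lv-Ctrl against 95.6 ± 0.392% under the label Lv-Piezo1 (SD, n = 4 each). The share was 1.98 percentage points higher, and the groups did not overlap (exact two-sided permutation test, p = 0.029, adjusted p = 0.043 over the 3 measures). The shares of single ligands were added after the values had been seen and are a description. The Fgf7 share went from 77.4% to 78.9% down to 69.5% to 70.3%, and the Fgf10 share from 14.3% to 16.3% up to 24.8% to 26.6%. The Fgf1 share was 3.18% to 3.89% in the samples labelled Lv-Ctrl and 1.41% to 2.02% in those labelled Lv-Piezo1. The summed TPM of the 5 ligands was 232.4 to 278.7 in the former and 263.9 to 303.3 in the latter, and these ranges overlapped.

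**Figure D3:**
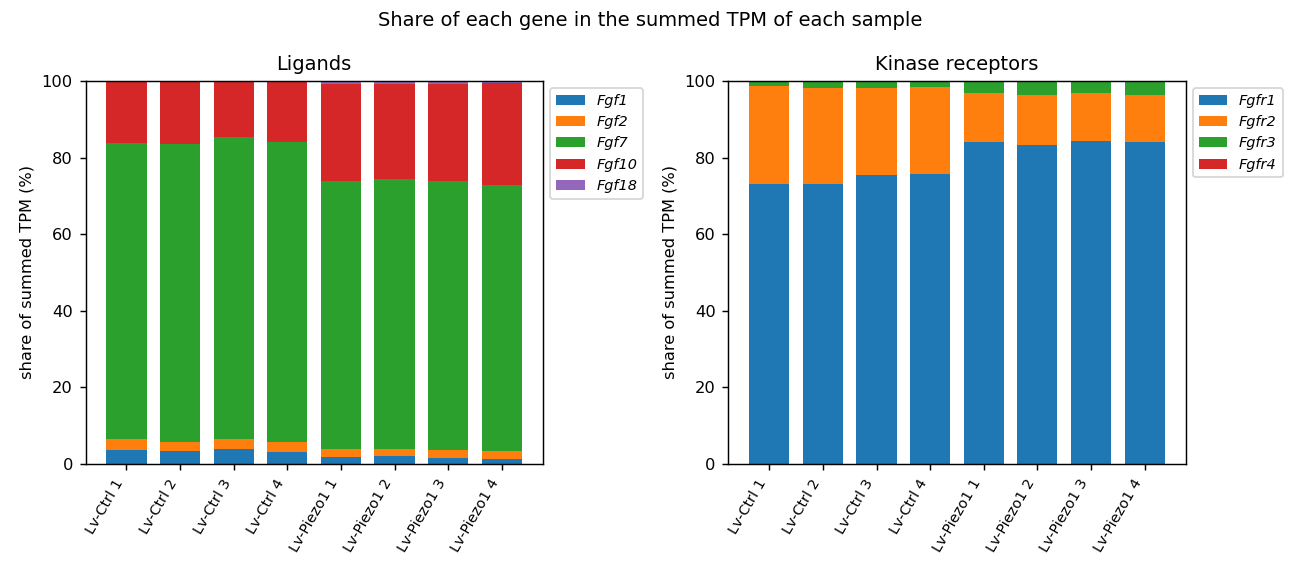
Share (vertical axes, percent) of each ligand in the summed TPM of the 5 ligands (left) and of each kinase receptor in the summed TPM of Fgfr1 to Fgfr4 (right), 1 bar for each of the 8 samples. In the bars labelled Lv-Piezo1, Fgf10 takes 24.8% or more and Fgfr1 83.4% or more, against at most 16.3% and 75.6% in those labelled Lv-Ctrl.

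Ordered by mean TPM, the members in the samples labelled Lv-Ctrl were Fgf7, Fgfr1, Fgf10, Fgfrl1, Fgfr2, Fgf1, Fgf2, Fgfr3, Fgf18 and Fgfr4. Of neighbours in this order, only Fgf10 and Fgfrl1 had overlapping values. In the samples labelled Lv-Piezo1 the order was the same, except that Fgf2 stood above Fgf1. There the values of Fgf2 overlapped those of Fgf1, and those of Fgf1 overlapped those of Fgfr3.

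Of 18 other FGF genes and the co-receptors Kl and Klb, 19 are in the table and 7 were tested. Fgf12, an intracellular FGF that acts on sodium channels and does not activate the receptors, was called. It measured 0.44, 0.03, 0.23 and 0.08 TPM in the controls (labelled Lv-Ctrl) and 1.69, 2.03, 1.85 and 2.80 TPM in those labelled Lv-Piezo1. Fgf12 too reached a mean of 1 TPM only through the samples labelled Lv-Piezo1, so its call is a description. The control values were all low and apart from the others, and the log2 fold change was 1.37 (standard error 0.16, limma adjusted p = 9.9e-05). A further 3 genes were lower without passing the fold threshold, namely the liver hormone Fgf21 (log2 fold change -0.54, limma adjusted p = 0.015), Fgf9 (-0.43, limma adjusted p = 0.015) and Fgf13, a relative of Fgf12 (-0.32, limma adjusted p = 0.035). The Fgf21 and Fgf13 values overlapped between the groups, and the adjusted p of Fgf13 ranged from 0.059 to 0.097 in the 6 fits of those leaving out 1 sample that lost it. Fgf16, Fgf22 and Klb, the co-receptor of Fgf21, did not pass (limma adjusted p = 0.40, 0.88 and 0.90). Fgf3, Fgf4, Fgf5, Fgf6, Fgf8, Fgf19 and Kl, the co-receptor of Fgf23, were listed at 0 in every sample.

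The genes around the members were taken as 5 lists with 84 genes, of which 74 were tested. In all, 4 were called (5.41%), 1 higher and 3 lower, against 7.67% of all tested genes, and the median log2 fold change was 0.11, against 0.14 over all tested genes. At an adjusted p below 0.05 alone, 26 were higher, 16 lower and 32 did not pass, a share near the 58.2% of all tested genes (41.9% higher and 16.3% lower).
Of the tested FGF-binding and heparan sulfate carriers, 1 of 12 was called. Sdc3, a syndecan, measured 2.23, 1.83, 1.77 and 1.64 TPM in the samples labelled Lv-Ctrl against 8.19, 7.58, 8.42 and 8.36 TPM in those labelled Lv-Piezo1. The groups were far apart, with a log2 fold change of 1.68 (standard error 0.08, limma adjusted p = 3.2e-07). Below the fold threshold and chosen after their values were seen, the syndecan Sdc1 (log2 fold change 0.79) and the adhesion molecule Ncam1 (0.93) were higher and the glypican Gpc1 lower (-0.68), each with a limma adjusted p of at most 2.7e-06.

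Of the enzymes of heparan sulfate, 2 of 12 tested were called, both lower, where 7.67% of all tested genes were called (4.91% higher and 2.76% lower). At an adjusted p below 0.05 alone, 4 were higher, 3 lower and 5 did not pass, where 58.2% of all tested genes passed. Hpse, the heparanase that cleaves the chains, measured 5.40, 5.76, 5.51 and 4.61 TPM under the label Lv-Ctrl and 1.04, 1.09, 1.52 and 1.47 TPM in those labelled Lv-Piezo1. Sulf2, which removes sulfate groups from the chains, measured 14.1, 13.6, 11.3 and 12.3 TPM in the former and 5.46, 4.87, 5.76 and 5.88 TPM in the latter. Neither gene overlapped between the groups, and the log2 fold changes were -1.47 (standard error 0.11) and -1.09 (standard error 0.08), with limma adjusted p = 3.8e-06 and 4.9e-06. Below the fold threshold, and chosen after their values were seen, the chain polymerase Ext1 was higher (0.74, limma adjusted p = 1.5e-05) and the sulfotransferase Hs6st1 lower (-0.57, limma adjusted p = 8.5e-06).

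Of the 24 tested adaptors and kinases, none was called, 9 were higher and 2 lower at an adjusted p below 0.05, and 13 did not pass, where 58.2% of all tested genes passed (41.9% higher and 16.3% lower). The largest changes were those of the kinase gene Rps6ka1, with 4.47 to 4.97 against 10.1 to 10.95 TPM (log2 fold change 0.99, standard error 0.05, limma adjusted p = 7.1e-07), and of the transcription factor Stat3, with 34.0 to 44.6 against 60.1 to 72.3 TPM (0.67, standard error 0.09, limma adjusted p = 1.6e-04). Rps6ka1 lay just under the threshold and passed it with a pseudocount of 0.1 (1.12), without Lv-Ctrl replicate 2 (1.01) and without Lv-Piezo1 replicate 2 (1.00).

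Of the 15 feedback inhibitors, all tested, Spry1 alone was called, where 7.67% of all tested genes were called. At an adjusted p below 0.05 alone, 4 were higher, 3 lower and 8 did not pass, where 58.2% of all tested genes passed. Sproutys restrain the path from the receptor to ERK and are induced by it. Spry1 measured 194.2, 194.8, 178.3 and 177.8 TPM in the controls (labelled Lv-Ctrl) and 41.8, 43.4, 42.2 and 44.4 TPM in those labelled Lv-Piezo1. The groups were far apart, and the mean went from 186.3 ± 9.5 to 43.0 ± 1.19 TPM (SD, n = 4 each), with a log2 fold change of -2.09 (standard error 0.04, limma adjusted p = 1.5e-09). Its relatives Spry2 (0.21, limma adjusted p = 0.0014) and Spry4 (0.37, limma adjusted p = 0.0021) were higher, Spry2 only without median-ratio scaling (0.052 with it, limma adjusted p = 0.16), and Spry3 did not pass (limma adjusted p = 0.71). The ERK phosphatase gene Dusp4 had a log2 fold change of -0.97 (limma adjusted p = 3.6e-05) and passed the fold threshold with a pseudocount of 0.1 (-1.31), median-ratio scaling (-1.08) or quantile normalization (-1.20), and without Lv-Ctrl replicate 3 or 4 (-1.01 in both). Dusp6, a phosphatase for ERK that is commonly read as a measure of FGF signalling, did not pass (-0.19, limma adjusted p = 0.13), with 12.3 to 16.6 TPM against 11.5 to 14.2 TPM. Its change was -0.34 after median-ratio scaling (limma adjusted p = 0.0061) and -0.28 without Lv-Ctrl replicate 3 (limma adjusted p = 0.012). The Spry2, Spry3, Spry4, Dusp4 and Dusp6 values were chosen after they were seen.

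Of the 11 tested transcriptional targets, none was called, and 10 had an adjusted p below 0.05, 5 in each direction, where 58.2% of all tested genes passed (41.9% higher and 16.3% lower). Those that changed most were Myc, a growth regulator (11 to 13.8 against 20.7 to 22.2 TPM, log2 fold change 0.74, standard error 0.07, limma adjusted p = 2.4e-05), and Etv5, an ETS factor induced by FGF signals (10.5 to 13.2 against 18.5 to 19.97 TPM, 0.63, standard error 0.07, limma adjusted p = 5.0e-05). Among those chosen after their values were seen, the cell cycle gene Ccnd1 was higher (0.55, limma adjusted p = 1.3e-05), while Etv1 (-0.53, limma adjusted p = 4.7e-04) and the early response gene Egr1 (-0.60, limma adjusted p = 3.5e-05) were lower.

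**Figure D4:**
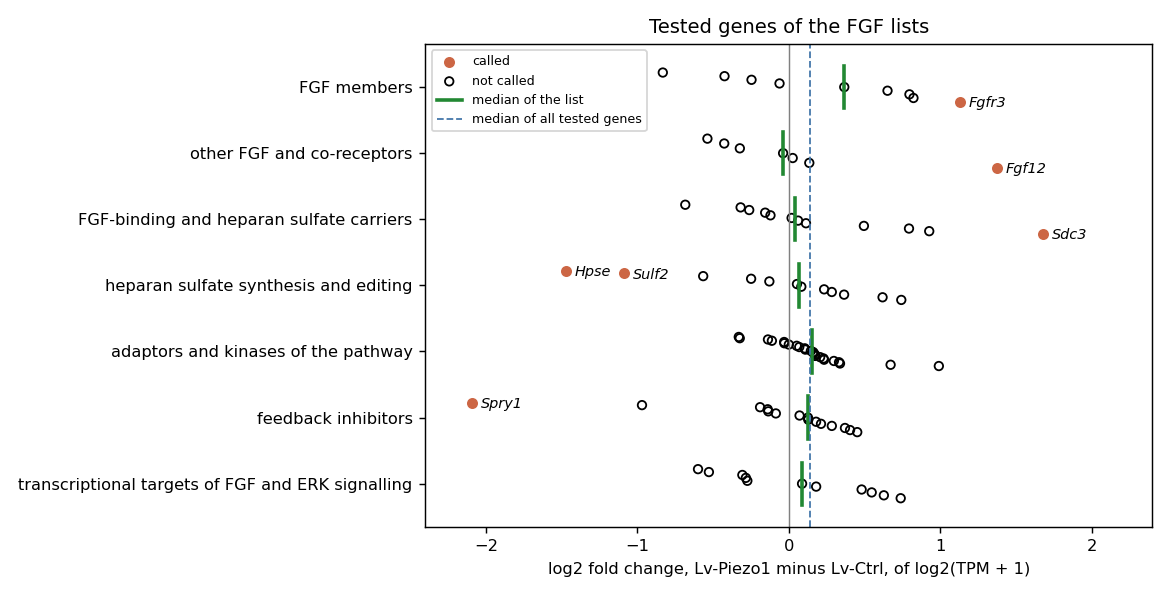
Log2 fold change (horizontal axis, samples labelled Lv-Piezo1 minus Lv-Ctrl, of log2(TPM + 1)) of every tested gene in the members, the other FGF genes and the 5 lists around them. Filled orange points are called and named, open points are not called, green bars are the median of each list and the dashed line is the median of all tested genes, and Spry1 at -2.09 and Sdc3 at 1.68 lie farthest out.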

How the data were processed

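Per the study's methods, the authors filtered the Novaseq reads for adapter, poly-N and quality, aligned them to a rat genome (HISAT2) and assembled transcripts (StringTie). The deposited table holds TPM made by the authors with 2 decimals, in 8 sample columns and 2 columns of group means, while the methods name FPKM. The submitters' processing notes name mm10, a mouse build, and DESeq2, whereas the table's identifiers are those of rat genes, and the rat build and annotation are not given in the sources used here. Columns were matched to samples through the labels.

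From the TPM, limma 3.58.1 in R 4.3.3 was fitted to log2(TPM + 1) of the 13103 genes with a mean of at least 1 TPM, with a trend and without a block, and p-values were adjusted over all of these genes. Shares of summed TPM were compared by an exact permutation test over 70 relabelings. On simulated data of 12637 genes, with 200 changed by 1.5 on the log2 scale, the fit called 196 in the right direction and 4 unchanged genes. The simulation changed no gene of low level and put in no shift common to all genes. It therefore does not cover low genes or the scaling of the samples.

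The members and the lists were chosen with earlier results of these data known. The genes named were all members, the other FGF genes and co-receptors at 1 TPM or more, and in each list up to 3 called genes in each direction or, where none was called, the 2 with the largest change. Any other gene is a marker from the fixed lists or is marked in the text as a later choice. Alternatives were a pseudocount of 0.1, no filter, a mean of at least 5 TPM, median-ratio scaling, quantile normalization, no trend, the replicate block, other totals for the shares and leaving out each sample. Fgf15 and Hspg2 were not analysed here. Promoter sequences are RefSeq's, build GRCr8.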

Additional observations from a re-analysis of the deposited data

Results flagged for a closer look

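In each group of 4 samples, the gap between the most distant sample and its nearest neighbour was compared with the range of the group. This was done for 84 groups, and chance flags about 1 in 20. In 4 groups 1 sample stood apart. Fgf7 measured 183.2 TPM in Lv-Ctrl replicate 3, against 213.8 to 216.8 TPM in the other samples labelled Lv-Ctrl. Ext1 measured 13.7 TPM in the same replicate, against 15.8 to 15.9 TPM in the others. Median-ratio scaling divides that replicate by 0.90 and the other samples labelled Lv-Ctrl by 0.95 to 0.97. The flags were taken on the deposited TPM, and whether they remain after scaling was not tested. Fgfr4 measured 0.05 TPM in Lv-Ctrl replicate 2 and was listed at 0 in the others, a value at the resolution of the table. Sdc1 measured 89.8 TPM in Lv-Piezo1 replicate 1, against 92.6 to 93.2 TPM in the others labelled Lv-Piezo1, all above the highest control value.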

How the results depend on the processing

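The number of members called was 1 on the deposited values, 2 with a pseudocount of 0.1 (Fgf18 and Fgfr3) and 0 with a mean of at least 5 TPM, where Fgfr3 and Fgf18 were no longer tested. It stayed at 1 in every fit that left out 1 sample, while quantile normalization called Fgf1 in place of Fgfr3. The number with an adjusted p below 0.05 was 8, and 7 to 9 without 1 sample. For the pathway lists the number called was 4, and 3 to 6 over all alternatives. Over all tested genes, 1005 were called, 64.1% of them higher, against 52.3% with median-ratio scaling and 48.8% with quantile normalization. Fgf16 had a log2 fold change of -0.089 with quantile normalization, and Fgf22 had -0.069 with median-ratio scaling and -0.20 with quantile normalization, both the reverse of their sign on the deposited values, and neither passed in any fit. Without 1 sample, the log2 fold change of Fgf22 ranged from -0.024 to 0.10 and that of Klb from -0.24 to 0.13, across 0 in both cases. The deviations of same-numbered samples from their group means had correlations of -0.058 to -0.012, so the numbers were not taken to pair the samples. Over all combinations of a sample labelled Lv-Ctrl with a sample labelled Lv-Piezo1, these correlations ran from -0.087 to 0.112. The main tests treat the samples as independent, and which of them share an isolation was not known here. The replicate number as a block moved the number of genes called from 1005 to 1004, left Fgfr3 as the called member and took Fgf13 to an adjusted p of 0.083. In the paired test of same-numbered samples the difference of 9.67 percentage points in the Fgfr1 share and that of 1.98 in the Fgf7 and Fgf10 share had p = 0.13 (exact sign-flip permutation), the smallest that 4 pairs allow. Without 1 sample, these differences ranged from 9.25 to 10.1 and from 1.83 to 2.13, and that of Fgfrl1 per kinase receptor from -3.73 to -2.44. Sequencing depth cannot be read from TPM, so the counting error of low genes such as Fgf18 and Fgfr4 is unknown.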
